A study of Mus musculus with 12 samples.

Results

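Subunits of the receptors for glutamate and GABA, the main excitatory and inhibitory transmitters of the brain, were followed in mouse glioblastoma cell cultures and in neural stem cell (NSC) cultures. The list held 35 genes. A probe set that the platform annotation gives to exactly 1 of these symbols was found for 34 of them, out of 19934 symbols measured in all. Since Gabrb2 had 3 probe sets, 36 of the 21780 probe sets with a single symbol were read. The remaining gene, Grin1, had no such probe set and was not analysed here. Each culture was measured on 1 Affymetrix whole-transcript array.

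The cultures fell into 4 groups of 3 arrays. The groups mGC1_GFAP, mGC2_NES and mGC3_CNP were tumour cells from G/tv-a, N/tv-a and C/tv-a Arf-/- mice, labelled as glioma stem cells. By its title the study was concerned with origin, malignancy and drug response of glioblastoma cells. In these mice tv-a, a receptor for an avian virus, is placed under the promoter of Gfap (G/tv-a), Nes (N/tv-a) or Cnp (C/tv-a), so that the promoter sets which cells can be infected. Tumours were made by injecting DF-1 chicken cells that release the virus RCAS-PDGFB-HA into the adult brain. The NSC group held 1 culture each from the subventricular zone of adult G/tv-a, N/tv-a and C/tv-a Arf-/- mice. All 4 groups thus share the loss of Arf, and all were grown adherently in serum-free stem cell medium without treatment. The tumour cultures are described as independent, with nothing on how many animals they represent, and the tests below rest on culture-to-culture spread only. In the tumour groups the origin and the mouse line cannot be told apart.

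AMPA, kainate and NMDA receptors are tetrameric ion channels opened by glutamate, delta receptors are related to them, and metabotropic glutamate receptors signal through G proteins. GABA-A receptors are pentameric chloride channels, usually built from alpha, beta and gamma or other subunits, and GABA-B receptors are dimers of the Gabbr1 and Gabbr2 products that couple to G proteins. Oligodendrocyte precursor cells, astrocytes and neural stem cells also carry some of these receptors.

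Fixed marker lists described the cultures. Over all probe sets tested, 17.6% were called higher and 19.2% lower in tumour than in NSC cultures. Of 9 oligodendrocyte precursor markers 7 were higher in tumour cultures, 0 were lower and 2 did not pass, and their mean log2 value per array was 12.43 to 12.6 in tumour against 9.72 to 10 in NSC cultures. Of 7 measured differentiated oligodendrocyte markers 3 were higher, 1 was lower and 3 did not pass, at 7.68 to 9.07 against 7.1 to 7.18. Of 8 astrocyte markers 1 was higher and 5 were lower, at 7.21 to 7.69 against 9 to 9.18. The higher one was S100b, at 11.40 to 12.31 in tumour against 7.11 to 7.47 in NSC cultures. Of 7 measured neural stem cell markers 0 were higher and 5 were lower, at 9.29 to 9.7 against 11.14 to 11.45. Of 12 neuron and neuroblast markers 3 were higher and 3 were lower, at 7.38 to 8.02 against 7.67 to 8.23, and they did not behave alike. On all 12 arrays Rbfox3, Neurod1 and Slc17a7 stayed at or below 7.42, while Map2 (11.82 to 12.54), Snap25 (7.71 to 9.10) and Gad1 (7.76 to 9.22) stayed above it, and the other 6 lay on both sides. The value of 7.42 was the highest reading on any array of Odf1, Prm2, Tnp1 and Tnp2, genes of maturing sperm cells that were taken as absent. Readings were at or below it on all arrays for 6 of 8 microglia, 4 of 6 endothelial and 4 of 7 pericyte and fibroblast markers. The part of these cell identities in the receptor differences was not tested, and in bulk cultures fewer cells of a kind and less RNA per cell cannot be told apart.

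Between tumour and NSC cultures, 24 of the 36 receptor probe sets passed the test, 14 higher and 10 lower in tumour cultures. This was 66.7% of them, against 36.7% of all probe sets tested (17.6% higher and 19.2% lower). An unadjusted p under 0.05 was reached by 26 receptor probe sets, and by 43.8% of all. A difference of at least 1 on the log2 scale, that is 2-fold, was called for 20 receptor probe sets (55.6%), against 7.36% of all. The arrays of both sides did not overlap for 19 (52.8%), against 27.3% of all. The median difference of the receptor probe sets was 0.21 and that of all probe sets 0.01. The median size of the difference regardless of sign was 1.25, against 0.15 over all. The list was chosen with earlier results of these data known, so these shares describe the list and are no test of it. By class, all 5 kainate receptor genes, 3 of 4 AMPA receptor genes and the delta receptor gene Grid1 were higher, while 5 of 11 GABA-A receptor probe sets were lower and 1 was higher.

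In 23 of the 36 probe sets the mean of at least 1 group exceeded 7.42. Where the lower of both means was at or below that value, as for 13 of the 24 called probe sets, the difference is a lower bound and has no order among such differences. Both means were at or below it for 5 called probe sets, those of Grik1, Grin2b, Grin2d, Grm7 and Gabrb1, so that presence on either side was not shown by this measure. For Grik1 the mean of mGC1_GFAP alone lay above it.

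**Figure D1:**
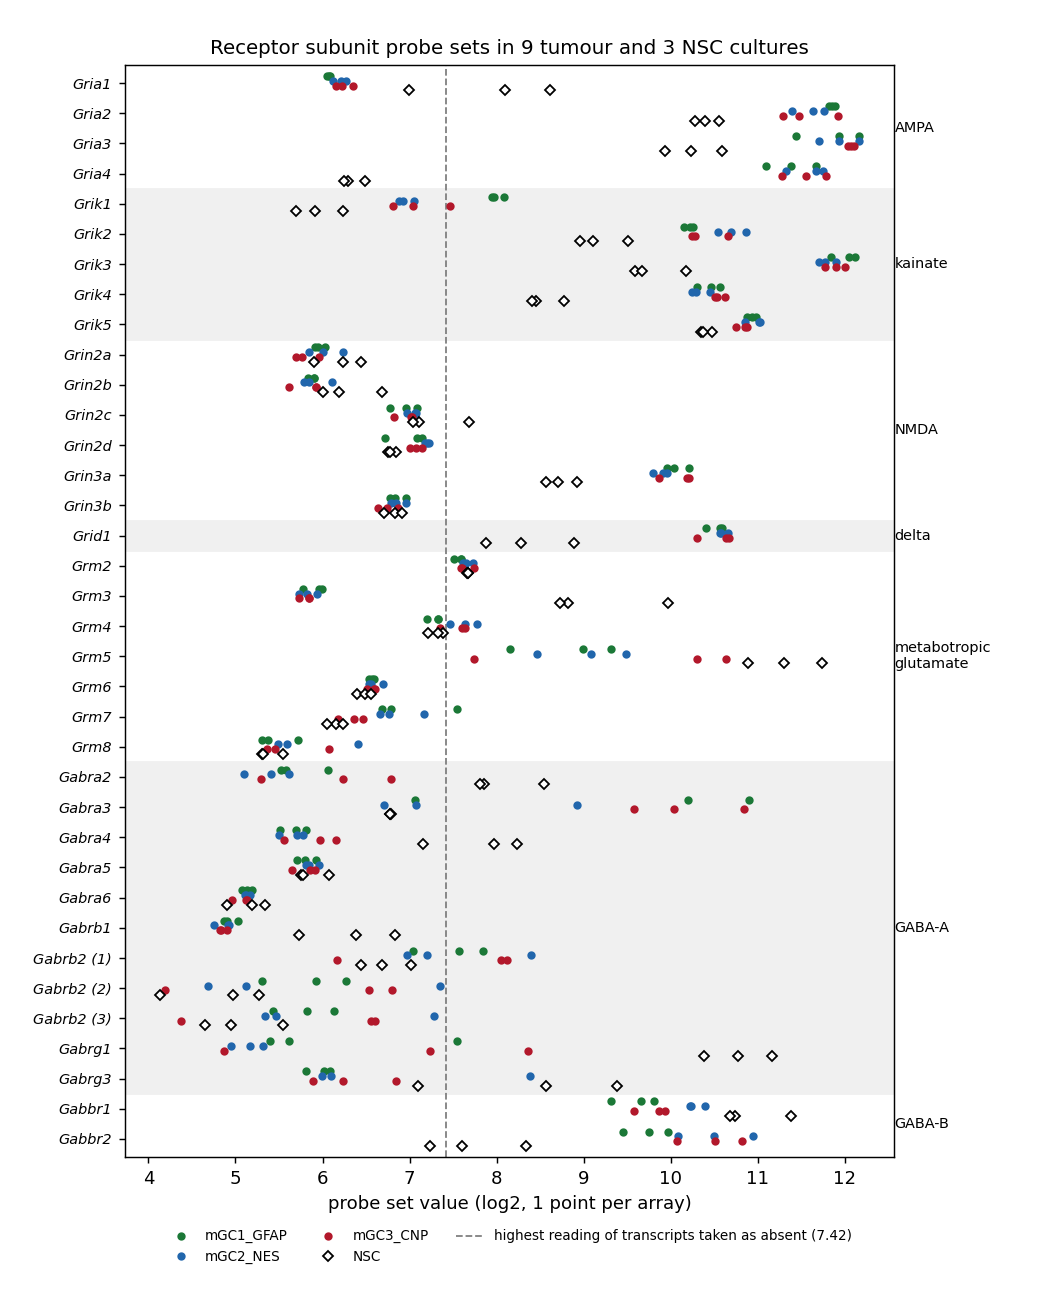
Probe set values on the log2 scale (x axis) of all 36 receptor probe sets (y axis, by receptor class), with 1 point per array, filled circles for the 9 tumour cultures by group and open diamonds for the 3 NSC cultures. The dashed line marks 7.42, the highest reading of the transcripts taken as absent; tumour and NSC points are apart for Gria4, at 11.10 to 11.79 against 6.25 to 6.49, and overlap for most NMDA receptor genes. Positions of different genes along the axis are not comparable.

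The stretch of 250 bases before the annotated start is shown for called genes, taken in order of their fitted difference in each direction, that have a single start in the RefSeq table of GRCm38.p6 and no other protein-coding gene over that stretch. They are given to show regulatory sequence beside receptor genes with large fitted differences, and since 4 of the 5 differences are lower bounds, the choice does not rank the genes. Of the 35 genes 26 had an entry, and 7 called genes met these conditions, 2 of them higher and 5 lower, of which 3 are shown. Sequences run 5′ to 3′ on the strand of the gene, all of them the minus strand. Capitals mark matches on either strand to the GC box GGGCGG or the CCAAT box CCAAT.
Gria4, higher, chr9:4796235-4796484: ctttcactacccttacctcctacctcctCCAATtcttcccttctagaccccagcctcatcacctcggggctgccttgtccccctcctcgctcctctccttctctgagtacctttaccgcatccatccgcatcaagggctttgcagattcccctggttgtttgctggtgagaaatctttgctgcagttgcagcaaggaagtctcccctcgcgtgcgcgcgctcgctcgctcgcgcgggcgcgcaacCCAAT
Gabbr2, higher, chr4:46991715-46991964: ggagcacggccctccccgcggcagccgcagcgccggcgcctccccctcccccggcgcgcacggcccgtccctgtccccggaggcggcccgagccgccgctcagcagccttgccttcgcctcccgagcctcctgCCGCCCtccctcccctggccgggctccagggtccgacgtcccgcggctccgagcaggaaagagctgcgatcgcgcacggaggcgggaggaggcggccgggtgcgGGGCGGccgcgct
Gabrg1, lower, chr5:70842618-70842867: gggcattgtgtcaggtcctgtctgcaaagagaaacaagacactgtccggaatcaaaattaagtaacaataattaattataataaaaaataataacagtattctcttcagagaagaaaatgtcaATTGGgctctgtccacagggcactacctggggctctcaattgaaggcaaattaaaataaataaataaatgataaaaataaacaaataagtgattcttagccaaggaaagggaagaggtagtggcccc
Grm3, lower, chr5:9725353-9725602: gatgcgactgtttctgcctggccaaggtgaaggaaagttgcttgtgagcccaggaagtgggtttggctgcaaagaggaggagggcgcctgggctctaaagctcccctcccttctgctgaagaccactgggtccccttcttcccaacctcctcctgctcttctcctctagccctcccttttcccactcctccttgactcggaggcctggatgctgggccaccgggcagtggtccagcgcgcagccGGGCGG
Gabra2, lower, chr5:71095850-71096099: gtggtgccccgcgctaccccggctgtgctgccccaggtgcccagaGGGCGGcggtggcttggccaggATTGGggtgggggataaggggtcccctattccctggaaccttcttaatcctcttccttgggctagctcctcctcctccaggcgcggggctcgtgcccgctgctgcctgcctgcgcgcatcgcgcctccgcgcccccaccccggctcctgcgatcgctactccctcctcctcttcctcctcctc

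The 5 stretches differed in composition. Gabbr2 had 80.8% G and C and 37 CG dinucleotides, more than 97.8% of the 32851 stretches of equal length in the table, while Gabrg1 had 35.6% and 1, more than 7.87% of them. Gria4 had 16 (58.8% G and C), Gabra2 18 (70% G and C) and Grm3 8 (62.4% G and C), beside a median of 6 over all stretches. A GC box was found in Gabbr2 (2 matches), Grm3 (1) and Gabra2 (1), and in 32.7% of all stretches. A CCAAT box was found in Gria4 (2), Gabrg1 (1) and Gabra2 (1), and in 33.8% of all. The TATA box TATAAA, the SOX core ACAAAG and the E-box CAGCTG, searched on both strands, were not found in these 5 windows and occurred in 12.4%, 16.5% and 13% of all. No match in the 5 windows overlapped another, and a match is a description of letters.

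AMPA receptors carry most fast excitatory transmission. Their 4 subunit genes all passed, and Gria1 went against the others. Gria4 read 6.29, 6.49 and 6.25 in the C/tv-a, N/tv-a and G/tv-a NSC cultures, below the 7.42 of absent transcripts, and 11.10 to 11.79 in tumour cultures with a median of 11.56. Its difference was at least 5.16 ± 0.14 (limma estimate ± SE, adjusted p = 2.04e-10), at least 35.8-fold, and the tumour means of 11.39 (mGC1_GFAP), 11.59 (mGC2_NES) and 11.54 (mGC3_CNP) were apart by less than the spread within groups. The lowest tumour culture lay more than 4 units above the highest NSC culture.

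Gria2, whose edited product makes the channel poorly permeable to calcium, read 10.28, 10.56 and 10.40 in the same NSC cultures. In tumour cultures it read 11.29 to 11.92 with a median of 11.76, a difference of 1.26 ± 0.12 (adjusted p = 7.34e-06). Gria3 read 10.59, 10.24 and 9.94 in NSC and 11.44 to 12.17 in tumour cultures, with a median of 12.04 and a difference of 1.69 ± 0.16 (adjusted p = 6.52e-06). For both genes the lowest tumour culture lay above the highest NSC culture. Gria1 was the AMPA receptor gene that fell. It read 8.61 in the C/tv-a, 6.99 in the N/tv-a and 8.10 in the G/tv-a NSC culture and 6.05 to 6.35 in tumour cultures, with a median of 6.15. The difference was -1.73 ± 0.24 (adjusted p = 1.40e-04), a lower bound on its size, and among the NSC cultures that of the N/tv-a line stood lowest.

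Kainate receptors combine the low-affinity subunits Grik1, Grik2 and Grik3 with the high-affinity subunits Grik4 and Grik5. All 5 genes rose, and the arrays of both sides did not overlap for any of them, as was so for 27.3% of all probe sets. Grik3 read 9.59, 10.18 and 9.67 in the C/tv-a, N/tv-a and G/tv-a NSC cultures and 11.71 to 12.12 in tumour cultures (median 11.90), a rise of 2.09 ± 0.12 (adjusted p = 9.05e-08). Grik4 read 8.45, 8.78 and 8.41 in NSC and 10.25 to 10.62 (median 10.47) in tumour cultures, a rise of 1.90 ± 0.09 (adjusted p = 1.89e-08). Grik2 read 9.11, 8.96 and 9.51 in NSC and 10.15 to 10.87 (median 10.28) in tumour cultures, a rise of 1.24 ± 0.12 (adjusted p = 9.76e-06). These rises were 4.25-fold, 3.73-fold and 2.37-fold. Grik1 read 5.70, 6.24 and 5.91 in NSC and 6.81 to 8.08 (median 7.05) in tumour cultures, a rise of at least 1.40 ± 0.13 (adjusted p = 7.00e-06). Grik5 rose least, by 0.51 ± 0.06 (adjusted p = 2.96e-05), from 10.35 to 10.48 in NSC to 10.75 to 11.03 in tumour cultures.

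NMDA receptors need glutamate and a co-agonist, and their Grin2 subunits set the kinetics of the channel. Of 6 measured genes 2 were higher, 1 was lower and 3 did not pass, that is 50% called against 36.7% of all probe sets. Grin3a, a subunit that lowers calcium permeability, was the only one of the 6 above 7.42 in the mean of any group. It read 8.57, 8.92 and 8.71 in the C/tv-a, N/tv-a and G/tv-a NSC cultures and 9.80 to 10.21 (median 9.96) in tumour cultures, a rise of 1.28 ± 0.09 (adjusted p = 9.12e-07). The other 5 had group means of 5.81 to 7.28. Grin2b was lower in tumour cultures by -0.42 ± 0.13 (adjusted p = 0.0234) and Grin2d higher by 0.29 ± 0.08 (adjusted p = 0.0132), and the arrays of both sides overlapped for each. Neither call was stable: without the G/tv-a NSC culture Grin2b stood at -0.22 (adjusted p = 0.143) and Grin2d at 0.28 (adjusted p = 0.0510), and without the N/tv-a NSC culture Grin2d stood at 0.27 (adjusted p = 0.0569). Grin2a (-0.26 ± 0.11), Grin2c (-0.30 ± 0.12) and Grin3b (0.01 ± 0.07) did not pass, with adjusted p = 0.0907, 0.0742 and 0.963. Grin2a was called lower when the G/tv-a NSC culture was left out, and Grin2c when the N/tv-a NSC culture was. With the mouse line, which tumour and NSC cultures share, as a block, both were called lower.

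The delta receptor gene Grid1, which codes for a synapse organiser of the glutamate receptor family, read 7.88, 8.89 and 8.28 in the C/tv-a, N/tv-a and G/tv-a NSC cultures. In tumour cultures it read 10.30 to 10.67 with a median of 10.58, a 4.62-fold rise of 2.21 ± 0.16 (adjusted p = 9.51e-07). The 9 tumour cultures lay closer together (SD 0.12) than the 3 NSC cultures (SD 0.51), all above them.

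Metabotropic glutamate receptors fall into group I (here Grm5), which stimulates phospholipase C, and groups II (Grm2, Grm3) and III (Grm4, Grm6, Grm7, Grm8), which inhibit adenylyl cyclase. Of 7 genes 1 was higher, 2 were lower and 4 did not pass, that is 42.9% called against 36.7% of all probe sets. Grm3 read 8.82, 8.73 and 9.97 in the C/tv-a, N/tv-a and G/tv-a NSC cultures and 5.73 to 5.99 (median 5.84) in tumour cultures. The difference of -3.33 ± 0.20 (adjusted p = 1.95e-07) is a lower bound on a fall of at least 10-fold, and no tumour culture exceeded the level of absent transcripts. Grm5, which like Grm3 is found on astrocytes, read 11.30, 10.89 and 11.74 in the same NSC cultures. In tumour cultures it spread from 7.74 to 10.64 with a median of 9.08, and fell by 2.18 ± 0.51 on the log2 scale (adjusted p = 0.00547). The arrays of both sides did not overlap, though mGC3_CNP replicate 2 at 10.64 stood just below the N/tv-a NSC culture. Grm7 rose by 0.59 ± 0.17 (adjusted p = 0.0151), with NSC cultures at 6.05 to 6.23 and tumour cultures at 6.18 to 7.55, overlapping. The Grm7 call did not hold without the C/tv-a NSC culture (0.59, adjusted p = 0.0515) or without the G/tv-a NSC culture (0.55, adjusted p = 0.0638). Grm2 (-0.05), Grm4 (0.17), Grm6 (0.09) and Grm8 (0.25) did not pass.

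**Figure D2:**
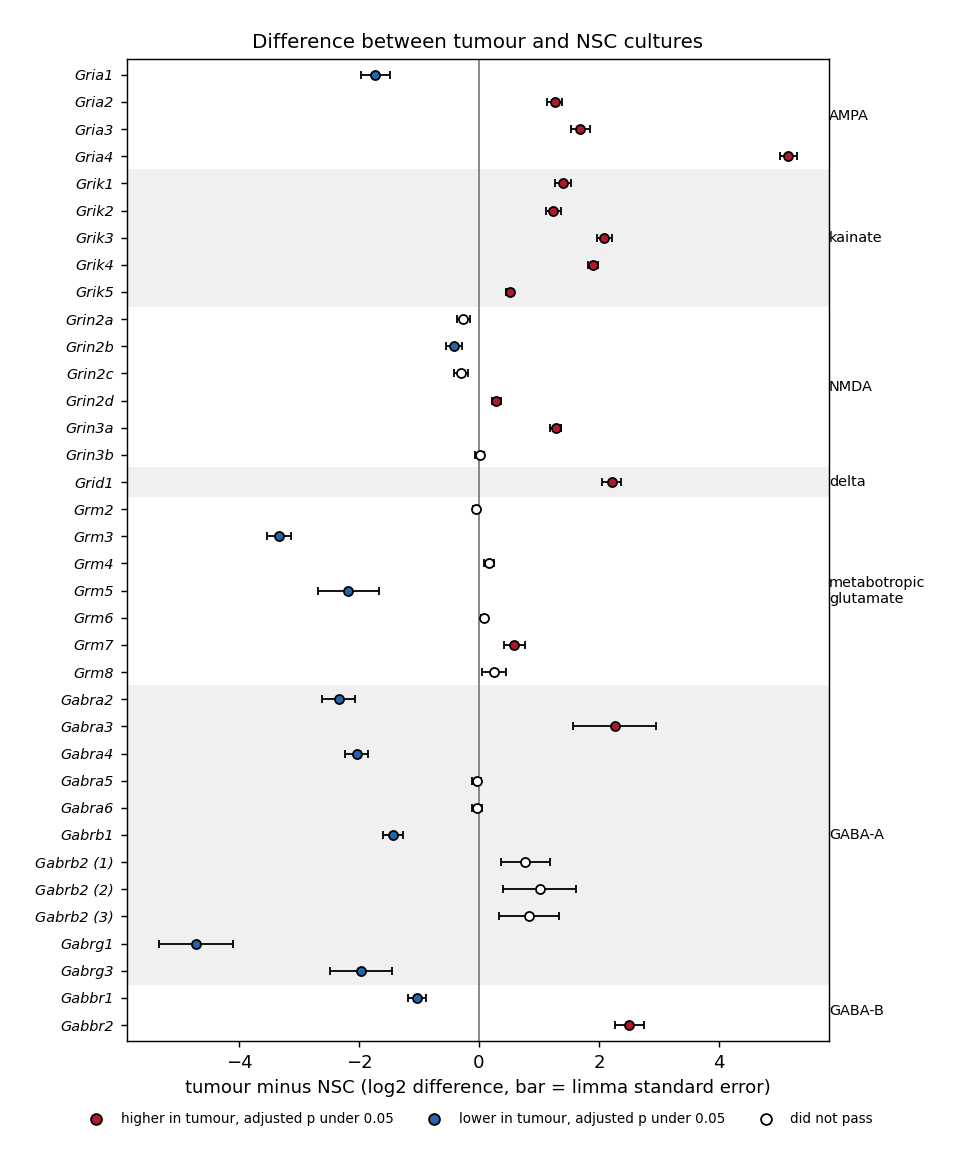
Difference between tumour and NSC cultures on the log2 scale (x axis) for the 36 receptor probe sets (y axis, by class), with bars of ± 1 limma standard error, from 9 tumour and 3 NSC arrays. Red circles mark the 14 called higher, blue circles the 10 called lower and open circles the 12 that did not pass; Gria4 is drawn at 5.16 and Gabrg1 at -4.72, both lower bounds on the size.

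GABA-A receptors, the largest class, gave the most falls, with 5 of 11 probe sets lower, 1 higher and 5 not passing. The share lower was 45.5%, against 19.2% of all probe sets and 50% of the GABA-B receptor probe sets (1 of 2). Of the gamma subunits, which take part in anchoring the channel at synapses, Gabrg1 read 10.77, 10.38 and 11.17 in the C/tv-a, N/tv-a and G/tv-a NSC cultures and 4.87 to 8.36 (median 5.40) in tumour cultures. Its difference of -4.72 ± 0.62 (adjusted p = 8.78e-05) is a lower bound on a fall of at least 26.4-fold, and even the highest tumour culture stayed 2 units below the lowest NSC culture. Gabrg3 read 8.57, 9.38 and 7.10 in the same NSC cultures and 5.81 to 8.38 (median 6.09) in tumour cultures, a difference of -1.97 ± 0.52 that bounds a larger fall (adjusted p = 0.0105). For Gabrg3 both sides overlapped, since mGC2_NES replicate 3 at 8.38 exceeded the G/tv-a NSC culture, and without the N/tv-a NSC culture it did not pass (-1.46, adjusted p = 0.0741).

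The alpha subunits shape the binding of GABA and of benzodiazepines. Gabra2 read 7.86, 8.55 and 7.81 in the C/tv-a, N/tv-a and G/tv-a NSC cultures and 5.10 to 6.79 (median 5.58) in tumour cultures, a difference of -2.34 ± 0.27 (adjusted p = 3.45e-05). Gabra4 read 7.97, 7.16 and 8.23 in NSC and 5.50 to 6.16 (median 5.71) in tumour cultures, a difference of -2.04 ± 0.19 (adjusted p = 6.75e-06). For both genes all 9 tumour cultures lay below all 3 NSC cultures and below 7.42, and the differences are lower bounds. Gabra5 (-0.04) and Gabra6 (-0.03) did not pass and had group means of 5.07 to 5.87 in all 4 groups. The beta subunits complete the GABA binding site. Gabrb1 read 6.83, 5.73 and 6.39 in NSC and 4.75 to 5.03 (median 4.90) in tumour cultures, without overlap, a difference of -1.43 ± 0.17 (adjusted p = 3.60e-05) at levels that do not show presence. The 3 probe sets of Gabrb2 differed by 0.77 ± 0.41, 1.01 ± 0.61 and 0.84 ± 0.50 and did not pass (adjusted p = 0.173, 0.240 and 0.231). Without mGC3_CNP replicate 1, the lowest tumour array at all 3, 2 of the 3 passed as higher in tumour cultures.

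Gabra3 alone among the GABA-A receptor genes rose, by at least 2.26 ± 0.69 (adjusted p = 0.0229). It read 6.77 in the C/tv-a, 6.79 in the N/tv-a and 6.77 in the G/tv-a NSC culture. Tumour cultures read 10.90, 7.06 and 10.20 in mGC1_GFAP, 6.71, 7.08 and 8.93 in mGC2_NES and 10.04, 9.58 and 10.84 in mGC3_CNP, in the order of replicates 1 to 3. Thus 6 tumour cultures lay clearly above the NSC cultures and 3 read at the level of absent transcripts, 1 of these in mGC1_GFAP and 2 in mGC2_NES. The call did not hold without the C/tv-a (2.26, adjusted p = 0.0716), the N/tv-a (2.27, adjusted p = 0.0674) or the G/tv-a NSC culture (2.26, adjusted p = 0.0667). The neuroblast gene Dcx, chosen after its values were seen, read 6.73, 8.02 and 6.64 in the C/tv-a, N/tv-a and G/tv-a NSC cultures and did not pass (adjusted p = 0.0672). It read 10, 7.14 and 10.61 in the same order in mGC1_GFAP, 6.42, 8.20 and 9.63 in mGC2_NES and 9.27, 10.15 and 9.67 in mGC3_CNP. The 3 tumour cultures low in Gabra3 were also the 3 lowest in Dcx. Of the other neuron markers, Snap25 was lowest in the same 3 cultures, at 7.89 in mGC1_GFAP replicate 2, 7.71 in mGC2_NES replicate 1 and 8.11 in mGC2_NES replicate 2 against 8.20 to 9.05 in the other 6. Syt1 was lowest in both of these mGC2_NES cultures (6.67 and 7.11) but not in mGC1_GFAP replicate 2 (8.57), and Rbfox3 stayed between 6.78 and 7.03 in all 9. Map2 was highest of all 9 in mGC1_GFAP replicate 2 (12.54) but lowest in mGC2_NES replicate 1 (12.21). Gad1 was highest of all 9 in mGC2_NES replicate 1 (9.22), so the neuron markers did not follow Gabra3 alike. The part of neuronal cells in the Gabra3 values was not tested.

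The position of the GABA-A receptor genes was looked at after their values were seen. Gabrg1, Gabra2, Gabra4 and Gabrb1 were the 4 members called lower without overlap in this class. They follow each other in this order on chromosome 5, with Cox7b2 between Gabra2 and Gabra4. Cox7b2 differed by -0.03 ± 0.06 and did not pass (adjusted p = 0.758), with both means below 5. The nearest 5 measured protein-coding genes on each side and Cox7b2 had 13 probe sets in all. Of these 2 were higher, 3 were lower (Commd8 and both of Nfxl1) and 8 did not pass, while 36.7% of all probe sets were called. The differences of the 13 ran from -0.42 (Nfxl1) to 0.44 (Atp8a1). Like Cox7b2, Yipf7, Corin and Cnga1 had both means below 7.42, where a fall could not be read. The differences of the 4 receptor genes ran from -4.72 to -1.43. The same limit holds for Gabrb1 (-1.43), whose means of 4.88 in tumour and 6.32 in NSC cultures were both below 7.42. The directly adjacent genes Gnpda2 (0.37 ± 0.08) and Commd8 (-0.24 ± 0.05) went opposite ways. The annotated 5′ ends of Gabra4 and Gabrb1 overlap on opposite strands, and which part of each gene the probes cover was not given.

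**Figure D3:**
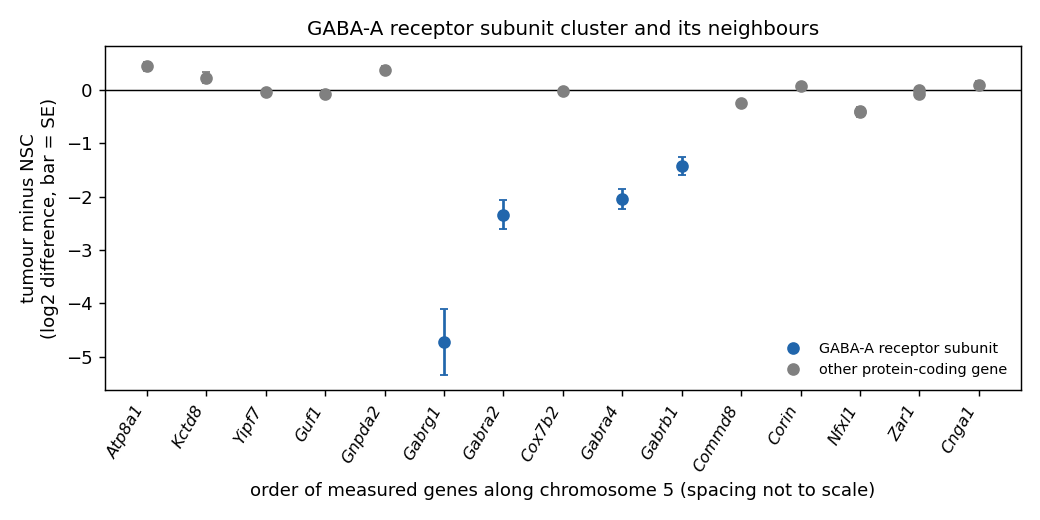
Difference between tumour and NSC cultures on the log2 scale (y axis, bars ± 1 limma standard error, often smaller than the point) for measured protein-coding genes in their order along chromosome 5 (x axis, spacing not to scale). The 4 GABA-A receptor genes, in blue, lie between -4.72 and -1.43, and the other genes, in grey, between -0.42 and 0.44. Gabrb1, Cox7b2, Yipf7, Corin and Cnga1 had both means below 7.42. Nfxl1 and Zar1 have 2 probe sets each.

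The GABA-B receptor is an obligatory dimer, in which the Gabbr1 product binds GABA and the Gabbr2 product couples to the G protein. Both genes passed, in opposite directions. Gabbr1 read 10.74, 11.38 and 10.68 in the C/tv-a, N/tv-a and G/tv-a NSC cultures and 9.31 to 10.39 (median 9.87) in tumour cultures, a fall of 2.06-fold (-1.04 ± 0.15, adjusted p = 1.73e-04). Gabbr2 read 7.60, 8.34 and 7.24 in NSC and 9.45 to 10.95 (median 10.08) in tumour cultures, a rise of 5.69-fold (2.51 ± 0.24, adjusted p = 8.19e-06). Neither gene overlapped between both sides, and in both the N/tv-a NSC culture read highest of the NSC cultures.

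The comparison of tumour groups asked whether receptor levels follow the cell of origin. Of the 36 probe sets 2, those of Grik1 and Gabbr1, passed limma's F test across the 3 groups (5.56%, against 4.05% of all probe sets), and 6 had an unadjusted p under 0.05 (16.7%, against 19.5% of all). Between mGC1_GFAP and mGC2_NES 3 were called (8.33%, against 6.13% of all), 1 higher and 2 lower in mGC1_GFAP (3.12% and 3.02% of all). Between mGC1_GFAP and mGC3_CNP 1 was called, higher in mGC1_GFAP (2.78%, against 0.487% of all), and between mGC2_NES and mGC3_CNP 0 (against 0.459% of all), where 5 had an unadjusted p under 0.05 in limma (13.9%, against 13.3% of all). The counts of the F test and of mGC1_GFAP against mGC2_NES gave shares near those of all probe sets, and the single call against mGC3_CNP is too few to set against its share. The pairwise comparisons share groups.

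Grik1 read 7.97, 8.08 and 7.95 in mGC1_GFAP, 7.05, 6.88 and 6.93 in mGC2_NES and 6.81, 7.04 and 7.47 in mGC3_CNP. All mGC1_GFAP cultures lay above all others, and above 7.42. Of all probe sets, 26.5% did not overlap between mGC1_GFAP and mGC2_NES and 19.4% between mGC1_GFAP and mGC3_CNP. Its F test gave adjusted p = 0.0127. It was higher in mGC1_GFAP than in mGC2_NES by at least 1.05 ± 0.15 (adjusted p = 0.00650) and passed this comparison without each array in turn. Against mGC3_CNP it was higher by at least 0.89 ± 0.15 (adjusted p = 0.0385), which held without mGC3_CNP replicate 3 but not without any other single tumour array (adjusted p of 0.0579 to 0.130, with differences of 0.74 to 0.92). The F test was also lost without mGC1_GFAP replicate 1. The difference of -0.15 ± 0.15 between mGC2_NES and mGC3_CNP did not pass.

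Gabbr1 read 9.81, 9.66 and 9.31 in mGC1_GFAP, 10.22, 10.24 and 10.39 in mGC2_NES and 9.58, 9.94 and 9.87 in mGC3_CNP, with the mGC2_NES cultures above all others. It was lower in mGC1_GFAP than in mGC2_NES by 0.69 (-0.69 ± 0.14, adjusted p = 0.0220), and its F test gave adjusted p = 0.0483. The pairwise call was lost without mGC1_GFAP replicate 3 (-0.55, adjusted p = 0.0527), mGC2_NES replicate 2 (-0.71, adjusted p = 0.0610) or mGC2_NES replicate 3 (-0.64, adjusted p = 0.0731). The F test was lost without any 1 array except mGC3_CNP replicate 1. Gabbr2, the partner subunit, read 9.45, 9.97 and 9.75 in mGC1_GFAP, 10.95, 10.50 and 10.08 in mGC2_NES and 10.82, 10.51 and 10.07 in mGC3_CNP. The differences of -0.79 ± 0.25 (mGC1_GFAP against mGC2_NES) and -0.74 ± 0.25 (mGC1_GFAP against mGC3_CNP) did not pass (adjusted p = 0.102 and 0.243). No mGC1_GFAP culture reached the lowest of the others, and in the same comparisons arrays did not overlap for 26.5% and 19.4% of all probe sets. Between mGC2_NES and mGC3_CNP, which did not overlap for Gabbr1, the share was 18.2%.

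Grik2 read 10.26, 10.22 and 10.15 in mGC1_GFAP, 10.87, 10.69 and 10.54 in mGC2_NES and 10.66, 10.28 and 10.25 in mGC3_CNP. It was lower in mGC1_GFAP than in mGC2_NES (-0.49 ± 0.12) at an adjusted p of 0.0494, and the call was lost without each of the 6 arrays of these groups (-0.57 to -0.40, adjusted p of 0.0581 to 0.141), without mGC3_CNP replicate 2 (adjusted p = 0.0655) and without mGC3_CNP replicate 3 (adjusted p = 0.0579). The same comparison with mGC3_CNP gave -0.19 ± 0.12 (adjusted p = 0.589). It was also lost when fitted on all 12 arrays (adjusted p = 0.0776) and when adjusted over the whole table (adjusted p = 0.0566), and passed in 6 of 16 alternatives in all.

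**Figure D4:**
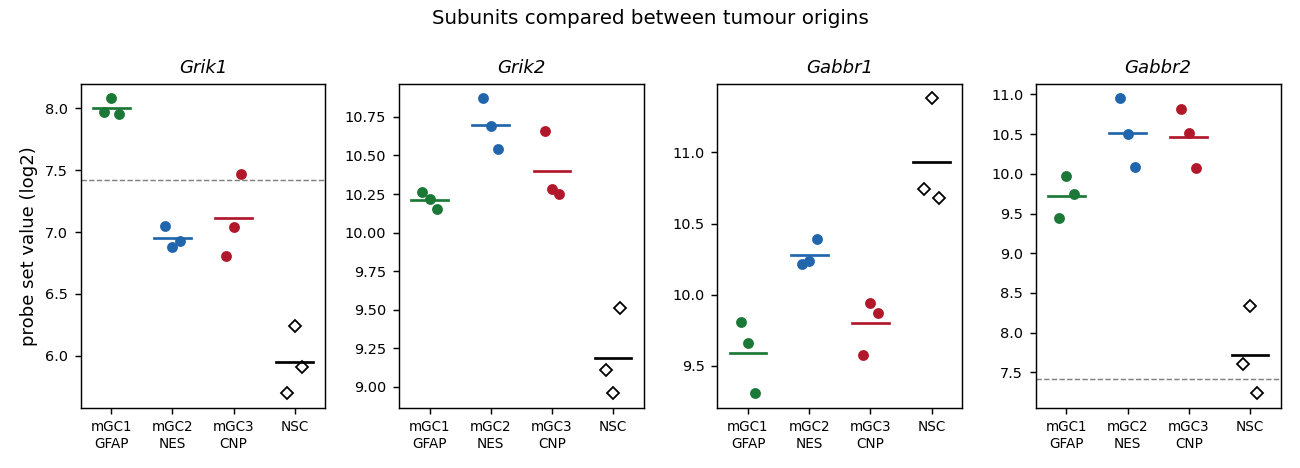
Probe set values on the log2 scale (y axis, own range in each panel, not starting at 0) of Grik1, Grik2, Gabbr1 and Gabbr2 in the 3 tumour groups and NSC (x axis), with 1 point per array and a line at each group mean. The dashed line marks 7.42 where a panel spans it; for Grik1 the mGC1_GFAP cultures at 7.95 to 8.08 lie above all other cultures, and for Gabbr1 the mGC2_NES cultures at 10.22 to 10.39 lie above the other tumour cultures.

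Some receptor genes, singled out after their values were seen, spread widely between cultures of 1 origin. The SD within tumour groups had a median of 0.11 over all probe sets, but was 1.42 for Gabra3, 1.24 for Gabrg1, 1.02 for Grm5, 0.83 for Gabrg3 and 0.81, 1.21 and 0.99 for the 3 probe sets of Gabrb2. All 7 values exceeded those of at least 99.4% of probe sets. The kainate receptor genes Grik3 (0.12), Grik4 (0.11) and Grik5 (0.07) were near or below the median, and Grik1 (0.20) and Grik2 (0.17) above it. Gabrg1 read 7.55, 5.61 and 5.40 in mGC1_GFAP, 4.95, 5.17 and 5.32 in mGC2_NES and 4.87, 7.23 and 8.36 in mGC3_CNP, so that mGC1_GFAP replicate 1 and mGC3_CNP replicates 2 and 3 stood above the others. The same 3 cultures had the 3 highest readings of its neighbour Gabra2, at 6.06, 6.23 and 6.79, all below 7.42. The other genes of the cluster did not follow alike. Gabra4 was highest in mGC3_CNP replicates 2 (6.16) and 3 (5.97), but read 5.69 in mGC1_GFAP replicate 1 and 5.81 in replicate 2. Gabrb1 was highest in mGC1_GFAP replicate 2 (5.03). Both genes also stayed below 7.42 in all tumour cultures, where an order of cultures could not be read. Grm5 read 9.32, 8.99 and 8.15 in mGC1_GFAP, 8.46, 9.08 and 9.49 in mGC2_NES and 7.74, 10.64 and 10.30 in mGC3_CNP. In mGC3_CNP replicate 1 was lowest of all tumour cultures for Grm5, Gabrg1 and the 3 Gabrb2 probe sets. The first Gabrb2 probe set read 7.57, 7.84 and 7.04 in mGC1_GFAP, 6.97, 7.20 and 8.40 in mGC2_NES and 6.17, 8.12 and 8.05 in mGC3_CNP, and the other probe sets of the gene ordered the extremes alike. No pairwise comparison of origins passed for these genes with all 9 arrays, though Gabra3 was called between mGC1_GFAP and mGC2_NES without mGC1_GFAP replicate 2. The difference of -2.58 ± 0.94 for Gabra3 between mGC2_NES and mGC3_CNP (adjusted p = 0.282) was the largest in size among them.

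**Figure D5:**
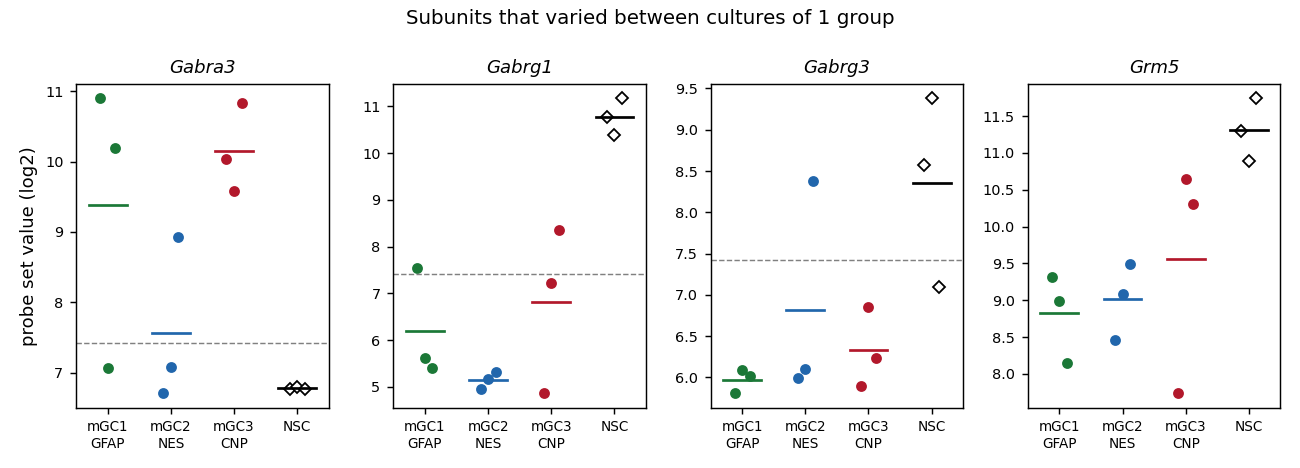
Probe set values on the log2 scale (y axis, own range in each panel, not starting at 0) of Gabra3, Gabrg1, Gabrg3 and Grm5 in the 3 tumour groups and NSC (x axis), with 1 point per array and a line at each group mean. The dashed line marks 7.42 where a panel spans it; Gabra3 spreads from 6.71 to 10.90 over tumour cultures while the 3 NSC cultures lie between 6.77 and 6.79.

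The partner genes of these receptors were read from fixed lists, also chosen with earlier results of these data known. The lists held 61 genes, of which 57 were measured by 62 probe sets. Of these, 21 were higher in tumour cultures, 9 were lower and 32 did not pass, that is 48.4% called against 36.7% of all, with a median difference of 0.10. None passed the F test among tumour groups in limma, where 4.05% of all probe sets did, and 15 of the 62 had an unadjusted p under 0.05, against 19.5% of all. Of the AMPA receptor auxiliary subunits 3 of 11 probe sets were higher and 3 lower. Cacng4 read 10.44, 11.05 and 10.96 in the C/tv-a, N/tv-a and G/tv-a NSC cultures and 12.28 to 12.55 in tumour cultures (1.57 ± 0.11, adjusted p = 6.69e-07). Cacng5 read 9.52, 8.99 and 8.75 in NSC and 6.79 to 7.15 in tumour cultures, a difference of -2.11 ± 0.12 that is also a lower bound (adjusted p = 1.38e-07). Of the 2 kainate receptor auxiliary genes, Neto1 rose from 10.52, 11 and 10.81 to between 12.83 and 13.25 (2.21 ± 0.09, adjusted p = 8.23e-09) and Neto2 did not pass. Of 18 scaffold and clustering probe sets 4 were higher and 3 lower, with Nptx2, a secreted clustering protein, at -2.28 ± 0.17, Pick1 at 0.92 ± 0.08 and 1 of 2 Homer2 probe sets at no less than 0.97 ± 0.19.

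Among genes for glutamate uptake, Slc1a1 and Slc1a3 moved in opposite directions. The transporter gene Slc1a1 read 8.07, 8.73 and 8.57 in the C/tv-a, N/tv-a and G/tv-a NSC cultures and 11.90 to 12.43 in tumour cultures, a 12.6-fold rise (3.65 ± 0.13, adjusted p = 2.17e-09). Slc1a3, the astrocyte and stem cell transporter, read 12.05, 11.56 and 12.27 in NSC and 6.81 to 11.23 (median 8.73) in tumour cultures, and fell by 3.12 ± 0.56 on the log2 scale (adjusted p = 9.31e-04). Of the 9 probe sets for uptake, release and synthesis of glutamate 3 were higher, among them the serine racemase gene Srr (0.88 ± 0.09), and 1 was lower. Slc17a7, also counted as higher, had means of 6.83 in tumour and 6.50 in NSC cultures, both below 7.42. Among 8 probe sets for synthesis, transport and breakdown of GABA 2 were higher and 2 lower. Gad2, counted as lower, had means of 6.09 in tumour and 6.68 in NSC cultures, again both below 7.42. The GABA transporter gene Slc6a11 read 11.27, 10.62 and 12.31 in NSC and 6.84 to 7.45 in tumour cultures, a difference of -4.36 ± 0.26 that is a lower bound on its size (adjusted p = 1.59e-07). Of 6 probe sets for clustering and trafficking of GABA-A receptors 4 were higher and 0 lower. Shisa7, an auxiliary subunit of these receptors, read 7.56, 7.72 and 7.90 in NSC and 10.99 to 11.43 in tumour cultures (3.45 ± 0.08, adjusted p = 1.08e-10), and Nlgn2, an adhesion protein of inhibitory synapses, rose by 1.09 ± 0.07. Both chloride cotransporter genes were higher, as were 1 of 2 RNA editing genes and 1 of 4 GABA-B receptor auxiliary genes. The editing gene was Adarb1 (0.19 ± 0.07, adjusted p = 0.0451). The auxiliary gene was Kctd16 (0.15 ± 0.05, adjusted p = 0.0319), with both means (7.07 and 6.92) below 7.42. Neither of these calls held under all alternatives.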

How the data were processed

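Gene expression was measured in 12 cultures on 1 array each. Per the submitters' processing notes, the authors ran RMA in Expression Console, and each deposited value is a log2 summary of 1 probe set. No version, annotation release or genome build is stated (not given in the sources used here). As RMA forces arrays to the same distribution, it hides any shift common to the bulk of genes. Array medians were 7.60 to 7.66. The number of arrays limits the precision. The values were used as deposited. Of 28270 probe sets, 21780 had exactly 1 symbol in the platform annotation, 1617 had several and 4873 were not listed; gene identifiers of 21689 matched the RefSeq table of GRCm38.p6, used for names, gene order and promoter sequences.

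Tests were run with lmFit and eBayes in limma 3.58.1 (R 4.3.3), two-sided, and calls were made at adjusted p under 0.05 (Benjamini-Hochberg, all 21780 probe sets). The script was tested on simulated data. Tumour minus NSC was the mean of 3 tumour group means minus the NSC mean, on 12 arrays; tumour groups were compared on their 9 arrays. Each probe set is its own measurement. Levels of different genes are not comparable. Members with a called difference of at least 1, or called between tumour groups, were given by array. Of the partner genes, the 12 with the largest called differences were named. Exceptions named after their values were seen were Neto2, Adarb1, Kctd16, Slc17a7, Gad2, S100b and single neuron and neuroblast markers. Genes beside the chromosome 5 cluster and the wide-spread genes were looked at after values were seen. The members and lists were chosen with earlier results of these data known. Alternatives were leaving out each array, blocks by mouse line or replicate number, a filter on low values, median centring, an intensity trend with a robust prior, a fit on all arrays and adjustment over the whole table.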

Additional observations from a re-analysis of the deposited data

How the results depend on the processing

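Between tumour and NSC cultures 24 receptor probe sets were called. The count was 21 to 26 without each array in turn, including 20 to 24 of these 24, and 26 with the mouse line as a block, which kept the 24 and added Grin2a and Grin2c. It was 22 when only probe sets above 6.49, the highest array mean of the transcripts taken as absent, were tested, 20 when only those above their highest reading of 7.42 were, a setting chosen after seeing the data that left Gabrb1, Grin2b, Grin2d and Grm7 untested, and 24 with centring, the trend or the whole table. No called difference changed direction under any alternative run. Without each array in turn, mGC1_GFAP against mGC2_NES gave 1 to 3 calls, mGC1_GFAP against mGC3_CNP 0 to 1 and the F test 0 to 3. With the replicate block the counts were 3, 0 and 0 for mGC1_GFAP against mGC2_NES, mGC1_GFAP against mGC3_CNP and mGC2_NES against mGC3_CNP, and 2 for the F test, of which 1 (Grik1) was shared with the fit without the block; Grik1 against mGC3_CNP then had adjusted p = 0.0742. Whether the replicate numbers pair the cultures was not tested. Correlations of equal numbers ran from 0.00 to 0.25, and 6 of 9 arrays correlated best with their own number. No values for unequal numbers were set beside these, so they do not decide it. Fitted on all 12 arrays, mGC1_GFAP against mGC3_CNP gave 0 calls, mGC1_GFAP against mGC2_NES 2 (without Grik2) and the F test 1; adjusted over the whole table, mGC1_GFAP against mGC2_NES gave 2 (without Grik2) and the F test 1. The causes were not tested. Partner genes gave 24 to 30 calls under all alternatives. Against the 95th percentile of olfactory receptor probe sets (6.64) in place of 7.42, 27 rather than 23 receptor probe sets exceeded background in some group, and against 6.49 it was 28. Low signal limits what can be said of the NMDA receptor genes other than Grin3a.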
